A study of Mus musculus with 2 samples.

Results

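The genes described here are the mouse miRNA genes whose symbols belong to the families Mir297, Mir466, Mir467 and Mir669, 69 of the 1973 miRNA genes in the count tables. They were chosen by symbol alone, without use of their counts. The tables come from small RNA of the embryonic facial prominence, the buds of mesenchyme and covering epithelium that form the face and jaws. The tissue was taken from embryos of strain B6NCrl at embryonic day 12.5, healthy and of mixed sex, with no treatment or genetic change named in the labels. The 2 libraries are biological replicates of this 1 group, replicate 1 from a pool of 120 embryos and replicate 2 from a pool of 88 embryos, so a test on the reads compares these pools and not conditions.

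These families descend from simple repeats that expanded in rodents. Most copies sit in a single intron of Sfmbt2, which encodes a Polycomb group protein and is imprinted, with expression from the paternal allele in early embryos and extraembryonic tissue. In the mouse the intronic miRNA block is known for its role in the placenta. A miRNA acts through its seed, bases 2 to 8 of the mature strand, which pairs with target mRNAs.

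Of the 69 genes, 59 lay in Sfmbt2 on its strand and 10 elsewhere. Sfmbt2 (ENSMUSG00000061186.15) spans chr2:10370510-10595253 on the plus strand of GRCm38 (mm10), and all 59 lay in 1 intron of 62472 bases, chr2:10461473-10523944. This is the intron between exons 11 and 12 of transcript Sfmbt2-205, which has 23 exons. The first of the 59 is Mir466m and the last Mir669h, 51.6 kb from end to end. Copies of Mir467 followed each other at a median spacing of 2450 bases. For 10 of the 14, the next of the 59 family genes along the intron was a Mir466 copy that started 282 to 292 bases downstream. The 10 genes elsewhere lay on chromosomes 3, 5, 7, 9, 10, 11 and 13, and among them Mir466q alone had a host gene on its strand, an intron of Tnik.

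RefSeq sequences on GRCm38.p6 matched 9 of the 69 genes, 8 with a mature strand and 4 with a hairpin, all outside Sfmbt2. The 8 mature strands are shown because they make visible the repeat from which the families derive, runs of alternating u and g or of c and a. Capitals mark the seed, and each strand runs 5′ to 3′.
Mir466k (chr3:85467396-85467418, plus strand): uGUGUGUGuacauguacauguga
Mir466j (chr10:60960802-60960824, plus strand): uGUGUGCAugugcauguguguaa
Mir669n (chr3:115979905-115979924, plus strand): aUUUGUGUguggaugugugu
Mir467h (chr9:115381898-115381919, plus strand): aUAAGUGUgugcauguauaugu
Mir466q (chr3:28419988-28420007, plus strand): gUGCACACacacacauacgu
Mir466i-3p (chr13:17747552-17747573, plus strand): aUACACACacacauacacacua
Mir467f (chr11:69635419-69635439, minus strand): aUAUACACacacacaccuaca
Mir467g (chr5:34732872-34732892, minus strand): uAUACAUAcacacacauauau

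The 8 strands had 8 different seeds, so no seed grouped any of them. The letters of each seed were searched on the hairpin's own strand. Those of the Mir467h seed were found in 2 of the 69 hairpins, its own and that of the intronic gene Mir467e, and in 0.686% of the 1894 hairpins with sequence. The seed of Mir466i, by contrast, was found in 40 of the 69 hairpins, 8 of them hairpins of the 9 genes detected below, and in 7.81% of all hairpins. The seed of Mir466k was in 40 of the 69 and in 9.35% of all. That of Mir467g was in the most of the 69, 51, and in 6.65% of all. A match of these letters in a hairpin is a description and not a mature strand. The hexamer TGTGTG, read on either strand, was present in all 69 hairpins, against 19.9% of the 1894, and it overlaps the letters of the Mir466k seed. How far a hairpin can consist of the repeat is seen in Mir466k (chr3:85467377-85467498, plus strand), with its mature strand in capitals.
Mir466k hairpin: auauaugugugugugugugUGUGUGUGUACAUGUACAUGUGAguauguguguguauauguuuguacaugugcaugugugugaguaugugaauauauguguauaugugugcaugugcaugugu
Mir467h hairpin (chr9:115381819-115381939, plus strand): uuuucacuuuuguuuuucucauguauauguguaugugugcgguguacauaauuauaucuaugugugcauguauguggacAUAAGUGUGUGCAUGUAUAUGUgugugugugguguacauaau

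Replicate 1 held 4719337 reads on the own strand of miRNA genes and replicate 2 held 5929220, and levels are given as CPM, the count scaled to a sum of 1000000. CPM are not divided by length, since a mature miRNA gives reads of about its own length, and differences in capture between miRNAs were not tested. Detection meant 10 counts or more in each library. The limit taken for a count of 0 was 3 counts, or 0.636 CPM in replicate 1 and 0.506 CPM in replicate 2. The two-sided Poisson interval for 0 counts ends higher, at 0.782 and 0.622 CPM. Both limits hold only for reads that map to 1 place. Reads with several mapping places, 26.02% of all reads in replicate 1 and 27.9% in replicate 2, are listed apart from the genes. They outnumbered the reads counted on the 69 genes by 135 times in replicate 1 and 128 times in replicate 2, and which genes they came from was not tested. This matters for these families because 67 of the 69 hairpins held a stretch of 20 bases that also occurs in a miRNA gene at another place, against 923 of the 1894 genes with a hairpin sequence. The marker genes of mesenchyme and cartilage (6 of 6 detected, 6.44% ± 0.0356 of counts, SD, n = 2) and of surface epithelium (7 of 7, 3.33% ± 0.353) were present, which are the main components of the labelled tissue.

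A smaller share of the repeat-derived genes than of all genes passed the detection minimum. Of the 69, 25 had counts in at least 1 library, and 44 had 0 counts in both libraries. Detected were 9 (13.04%), against 395 of all 1973 genes (20%). All 9 were among the 43 genes with at least 20 stretches of 20 bases that no other miRNA gene shares (20.9% of the 43). Of the 26 genes with fewer such stretches 0 were detected. Together the 69 genes held 0.466% of gene counts in replicate 1 (exact Clopper-Pearson interval 0.460 to 0.472) and 0.471% in replicate 2 (interval 0.465 to 0.476), a mean of 0.468% ± 0.00347 (SD, n = 2). All 9 detected genes lay in the Sfmbt2 intron, which gave 100% of the counts on the 69 genes in replicate 1 and 99.99% in replicate 2. The exception was Mir466q in Tnik, with 0 and 2 counts.

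Mir467 had the most counts of the families. Its 17 genes held 80.3% ± 0.395 of the counts on the 69 genes (SD, n = 2), although 3 of the 17 were detected and these 3 gave nearly all of it. Reads with several mapping places are not in these counts. Every stretch of 20 bases was shared in 10 of 17 Mir467 and 6 of 25 Mir466 genes. The same held for 4 of 21 Mir669 and 0 of 6 Mir297 genes, so a family's share of counts is not its share of level. Mir467d, the highest, stood at 1549 CPM in replicate 1 and 1481 CPM in replicate 2 (mean 1515 ± 47.8 CPM), which placed it 86th among the 395 detected genes. Mir467e stood at 1136 and 1283 CPM (1209 ± 104 CPM). Mir467c stood at 1067 and 1000.5 CPM (1034 ± 47.0 CPM). The 3 genes kept this order in both libraries, and the levels of the pools lay close together for each.

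Mir467d (ENSMUSG00000077021.2) lies at chr2:10507630-10507714 and Mir467e (ENSMUSG00000076948.2) at chr2:10505721-10505807, adjacent Mir467 copies near the downstream end of the block. Mir467c (ENSMUSG00000077049.2) lies near the upstream end, at chr2:10473931-10474027. The hairpins of Mir467d and Mir467e were each other's nearest among all miRNA hairpins, 7 edits apart. The other Mir467 genes of the intron, Mir467a-1 to Mir467a-10 and Mir467b, had at most 8 counts in either library. Mir467b had 8 in both and Mir467a-1 had 3 and 5, while Mir467a-2 to Mir467a-10 had 0 in both.

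Mir669 had the most detected genes of the 4 families, 5 of 21, and held 19.3% ± 0.246 of the counts on the 69 genes. Mir669l (chr2:10468971-10469068) stood at 374 CPM in replicate 1 and 376 CPM in replicate 2 (375 ± 1.91 CPM). Mir669o (chr2:10514300-10514395) stood at 366 and 372 CPM (369 ± 4.12 CPM). These 2 genes lie at opposite ends of the block and had nearly the same level in reads with 1 mapping place. Their ratio was 1.02 in replicate 1 (exact counting interval 0.955 to 1.09) and 1.01 in replicate 2 (interval 0.954 to 1.07). Their counts thus did not differ beyond counting error in either library. Windows of 20 bases shared with another miRNA gene were 39 of 79 in Mir669l and 38 of 77 in Mir669o. Reads with several places are in neither level.

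Lower in the family, Mir669c (chr2:10509296-10509404) stood at 124 and 133 CPM (128 ± 6.35 CPM). Mir669e (chr2:10467495-10467613) stood at 21.6 and 28.2 CPM (24.9 ± 4.63 CPM). Mir669h (chr2:10518155-10518279), the last gene of the block, had 15 and 27 counts, or 3.18 and 4.55 CPM (3.87 ± 0.972 CPM). The 5 detected Mir669 genes thus ranked from 142 to 361 among the 395 detected genes, the last just above the detection minimum.

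Of the 25 Mir466 genes 1 was detected, Mir466n (chr2:10513741-10513834), at 13.1 CPM in replicate 1 and 18.05 CPM in replicate 2 (15.6 ± 3.47 CPM). Of the 6 Mir297 genes 0 were detected. The highest of them, Mir297a-2, had 4 counts in replicate 1 and 16 in replicate 2 (1.77 ± 1.31 CPM). Mir466 held 0.403% ± 0.119 of the counts on the 69 genes and Mir297 held 0.0436% ± 0.0295.

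**Figure D1:**
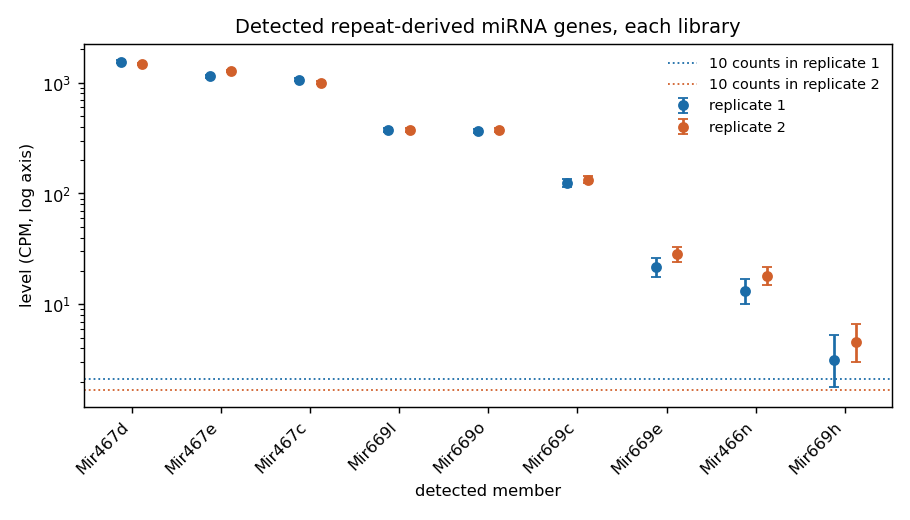
Level of the 9 detected genes in CPM on a log axis, 1 point per library with its exact Poisson interval at the 95% level (counting error only), and dotted lines at the level of 10 counts. The order is the same in both libraries, from Mir467d at 1549 and 1481 CPM to Mir669h at 3.18 and 4.55 CPM.

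In reads with 1 mapping place, the 9 genes spanned a 392-fold range of mean level and had the same order in both libraries. Their hairpins shared from 5% (Mir669e) to 62.1% (Mir467d) of 20-base windows with other miRNA genes. The range and order are thus those of the counts and may differ from those of the level. Each neighbouring pair in that order differed by more than the sum of the SDs of the pair, a weak criterion with n = 2. In both libraries, 7 of the 8 neighbouring pairs differed beyond counting error, the exception being Mir669l and Mir669o. The median of the 9 genes was 369 CPM (8.53 as log2(CPM + 1)), against 122 CPM over all 395 detected genes. This median depends on the detection minimum. With a minimum of 3 counts it was 4.69 as log2(CPM + 1), over 13 genes, and no median over all genes is given at that minimum. The 3 lowest detected genes were Mir669h, close to the detection minimum, and Mir466n (62 and 107 counts) and Mir669e (102 and 167 counts), well above it. Just below the minimum were Mir467b, Mir669f (6 and 10 counts) and Mir297a-2. The 60 genes that were not detected held 0.202% ± 0.0795 of the counts on the 69 genes.

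The detected genes lay at both ends of the block. The longest run of undetected family genes held 26, from Mir669a-3 to Mir466b-3, over 29.2 kb (chr2:10474433-10503645). Its bounds were set by detection, so its low counts follow from that choice. The 26 together had 13 counts in replicate 1 and 23 in replicate 2. The 13 genes upstream of this run had 6913 and 8361 counts, with 3 detected. The 20 genes downstream had 15061 and 19529 counts, with 6 detected. The central run was also where hairpins were most alike. Of its 26 genes 19 had no window of 20 bases that was not shared with a miRNA gene elsewhere, against 0 of the 13 upstream and 1 of the 20 downstream.

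**Figure D2:**
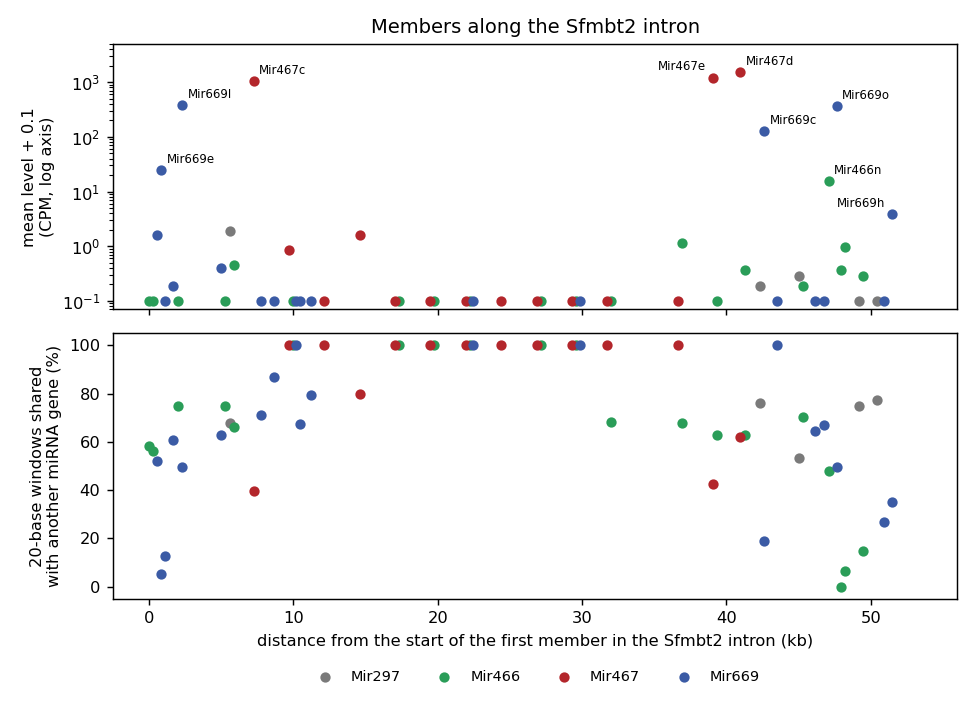
The 59 genes of the Sfmbt2 intron by distance from the start of the first of them in kb, with the mean level of both libraries plus 0.1 CPM on a log axis (upper plot) and the percentage of each hairpin's 20-base windows shared with another miRNA gene (lower plot). Colours mark the family. The detected genes stand at both ends, and the longest run of undetected genes, 26 between them, holds most of the hairpins with 100% of windows shared.

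Shared sequence went with low counts in these genes. In 20 of the 69, every window of 20 bases was shared with another miRNA gene, and these 20 had 3 counts in all in replicate 1 and 5 in replicate 2, all of them on Mir467a-1. In 17 genes the whole hairpin was identical to that of another miRNA gene, and these had 0 counts in both libraries. Mir467a-2, for example, was identical to 6 other genes. Among the 9 detected genes, 25 to 95 windows were not shared, the fewest in Mir467d and the most in Mir669e. A 20-base read from such a hairpin matches more than 1 miRNA gene, so for these 20 genes a count near 0 is no measure of the level.

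Unshared sequence did not go with high counts throughout. In the Sfmbt2 intron, 10 genes that were not detected had no larger share of shared windows than Mir467d, at 62.1%. Mir466g shared 0 of 61 windows and had 1 and 2 counts. Mir466h shared 4 of 62 windows and had 2 and 8 counts, and Mir669b shared 10 of 78 and had 0 in both. Mir669i shared 29 of 108 windows and had 0 in both. The other 6 were Mir466l, Mir669f, Mir297b, Mir466f-1, Mir466m and Mir669d, of which Mir669f had the most counts (6 and 10) and the rest at most 1 in either library. These 10 genes were low, and their hairpins held sequence that no other miRNA gene shares. Whether that sequence covers the part that gives reads was not tested. Mir466f-1 had 0 of 28 windows unshared on the 5′ side and 19 of 28 on the 3′ side, while Mir466g had 21 of 21 on both. Copies of their sequence outside miRNA genes were not searched. Outside Sfmbt2, 9 of the 10 genes were likewise no more shared than Mir467d, and Mir466q was the only one of the 10 with any counts.

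**Figure D3:**
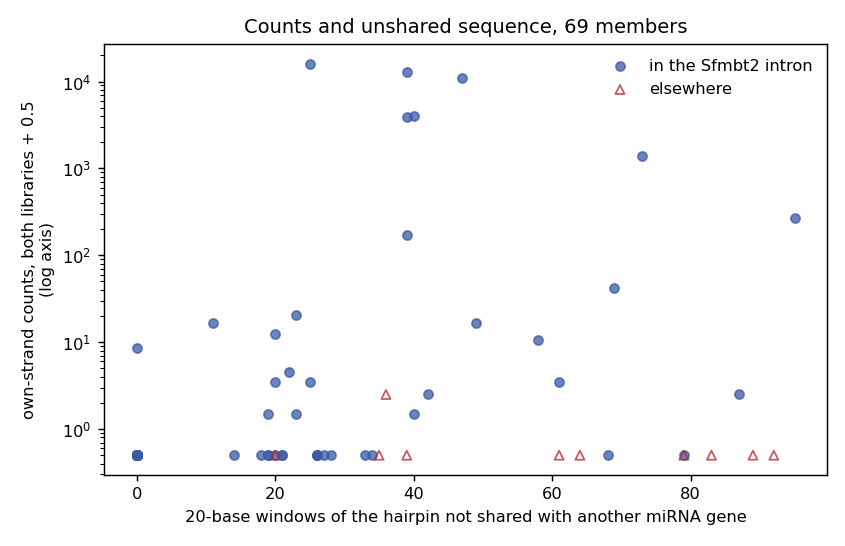
Own-strand counts of both libraries plus 0.5 on a log axis against the number of 20-base windows of the hairpin that no other miRNA gene shares, for all 69 genes (filled circles in the Sfmbt2 intron, open triangles elsewhere). Genes with 0 unshared windows had at most 8 counts over both libraries, while genes with 20 or more ranged from 0 counts to the 7308 and 8781 counts of Mir467d.

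The unshared windows lay mostly on 1 side of the hairpin in some detected genes and were nearly even in others. Mir467d had 19 of 23 windows unshared on the 5′ side of its hairpin and 6 of 23 on the 3′ side. Mir467c had 17 of 29 on the 5′ side and 29 of 29 on the 3′ side. Mir466n had 2 of 28 on the 5′ side and 28 of 28 on the 3′ side. Mir669c had 18 of 35 and 35 of 35. In Mir467e the sides were nearly even, with 20 and 19 of 24. They were also close in Mir669l (19 and 21 of 30), Mir669o (14 and 12 of 29) and Mir669e (40 and 35 of 40), while Mir669h had 39 and 30 of 43. The tables join both strands of a hairpin, so the side from which the reads came was not tested.

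Between the 2 pools the log2 ratios of the 9 detected genes lay between -0.10 and 0.51. The pools were compared by the two-sided exact binomial test with Benjamini-Hochberg adjustment over the 395 detected genes. By this test 0 of the 9 differed at least 2-fold at an adjusted p below 0.05, against 4.05% of all detected genes. For 9 genes, 0 is close to that share. At an unadjusted p below 0.05, 4 of the 9 differed, against 54.2% of all detected genes. With no minimum ratio 3 of the 9 passed, against 51.9% of all detected genes. These were Mir467e, with more in replicate 2 (log2 ratio, replicate 2 against 1, of 0.17, interval 0.12 to 0.22, exact binomial adjusted p = 1.07e-10), and Mir467d and Mir467c, higher in replicate 1. Their log2 ratios were -0.07 (interval -0.11 to -0.02, exact binomial adjusted p = 0.00511) and -0.10 (interval -0.15 to -0.04, exact binomial adjusted p = 0.00101). The test covers counting error alone. In edgeR's exact test with a biological coefficient of variation fixed at 0.2, 0 of the 9 passed, against 0.506% of all detected genes, and 0 had an unadjusted p below 0.05, against 5.06%.

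The 3 lowest genes had the widest ratios and the widest intervals. Mir669h had a log2 ratio of 0.51 (interval -0.45 to 1.53), Mir466n one of 0.45 (interval -0.01 to 0.93) and Mir669e one of 0.38 (interval 0.01 to 0.75). After adjustment 0 of these 3 passed (exact binomial adjusted p = 0.397, 0.0950 and 0.0690). Of the 9 genes, 7 were higher in replicate 2, with a median log2 ratio of 0.10, against 197 of 395 and a median of -0.003 over all detected genes. The SD of the log2 ratio over the 9 genes was 0.231, larger than this median. What lies behind any difference between the 2 pools was not tested. In whole tissue, fewer cells of a type and less RNA per cell cannot be told apart.

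**Figure D4:**
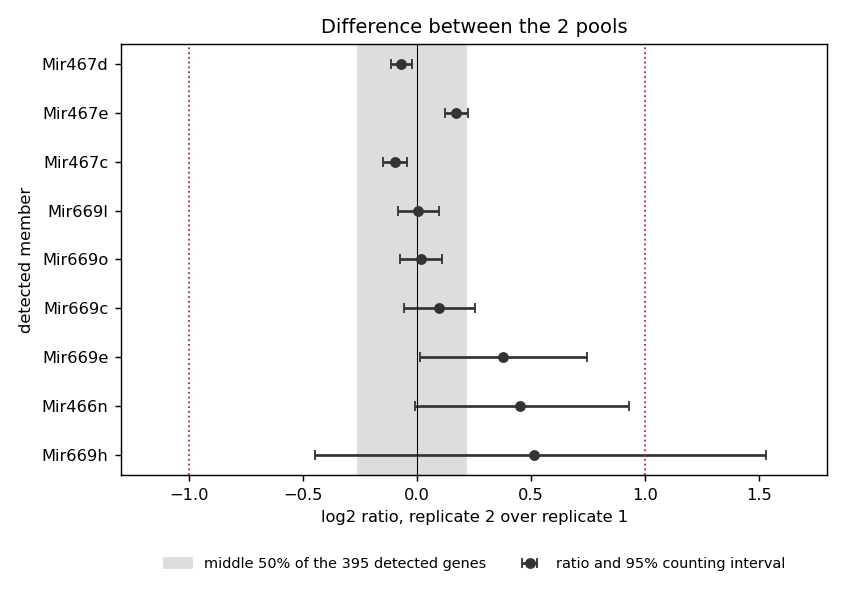
Log2 ratio of replicate 2 over replicate 1 for the 9 detected genes, with exact counting intervals at the 95% level. Dotted lines mark a 2-fold difference, and the grey band holds the middle 50% of the 395 detected genes, -0.26 to 0.22. All 9 ratios lie between -0.10 and 0.51, within the 2-fold lines, and the interval of Mir669h alone crosses one of them.

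No read of either library lay on the strand opposite to any of the 69 genes. Such reads were 3.24% (replicate 1) and 3.29% (replicate 2) of the reads over all genes. With both strands counted, genes with any count rose from 781 to 799 and detected genes from 395 to 404. How the opposite-strand reads were spread over genes was not tested, so their absence is not a trait particular to these families.

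The other miRNA genes annotated inside Sfmbt2 on its strand were close to silent in the tables. Of 48 such genes, none with a family symbol, 0 were detected, and together they had 13 and 11 counts. Gm22925 had 11 and 5 of these, Gm22239 had 2 and 4, and Gm22072 had 0 and 2. Sharing was common here too, with 22 of the 48 fully shared and a median of 88.9% of windows shared, against 67.1% over the 69 genes. The counts on miRNA genes inside Sfmbt2 thus came almost wholly from 9 of the 59 family genes.

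Set beside other clusters, the 69 genes took an intermediate place. The distal Dlk1-Dio3 cluster from Mir379 to Mir410, a large imprinted block of the maternal chromosome, had 29 of 33 genes detected and a summed level of 51703 ± 2412 CPM, led by Mir487b (9216 ± 49.6 CPM). The 69 genes summed to 4683 ± 34.7 CPM. The Mir290 to Mir295 cluster, which like Sfmbt2 is known from early embryos and placenta, had 3 of 7 measured genes detected and summed to 54.6 ± 0.136 CPM. Its highest genes were Mir293 (20.5 ± 2.95 CPM), Mir294 (20.3 ± 6.05 CPM) and Mir292 (9.28 ± 1.43 CPM). The X-linked testis cluster, which also arose by local duplication, had 2 of 18 listed genes detected and summed to 18.6 ± 0.605 CPM. The medians of the detected genes were 369 CPM for the repeat-derived families, 393 CPM for the distal Dlk1-Dio3 cluster, 20.3 CPM for Mir290 to Mir295 and 5.96 CPM for the testis cluster. The median of the repeat-derived families depends on the detection minimum, as given above. In the Dlk1-Dio3 cluster 2 of 33 hairpins shared a stretch of 20 bases with another miRNA gene, so that level is less affected by reads with several places. Another early embryonic cluster, Mir302a to Mir302d with Mir367, had 4 of 5 genes detected and summed to 1413 ± 32.0 CPM. Whether cells of that kind contributed to the counts on the repeat-derived genes was not tested.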

How the data were processed

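For each of the 2 libraries the authors deposited raw counts of reads on miRNA genes, from alignment to mm10 and GENCODE M4, per the library descriptions. Which aligner and counter were used is not given in the sources used here. The column of the gene's own strand was used, and reads unmapped (25.7% and 19.4%), multiply mapped or on no gene were kept out of library sizes. Symbols, places and hairpins came from GENCODE M21 (GRCm38), which matched 1894 of 1973 identifiers. The other 79 held 3 and 4 counts. RefSeq lists 81 genes of these families, of which 12 were not analysed here.

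Errors are the SD of 2 libraries. Intervals are at the 95% level (Clopper-Pearson for shares, Poisson for levels), and 3 counts set the limit for a count of 0. Both cover counting error only. Genes were compared by an exact binomial test against TMM library sizes (edgeR 4.0.16, R 4.3.3), since with 1 library on each side no spread can be estimated. The procedure was tested on simulated data. Hairpins were compared in windows of 20 bases on either strand. Named were all detected genes, the highest of each family, the 3 on each side of the detection minimum and the 3 highest of each comparison list. Others were chosen after their values were seen. Mir292, listed in the tables under that older symbol, was counted for Mir292a. The genes and lists were chosen with earlier results of these data known. Alternatives covered the count minimum, strand, denominator, normalisation (with DESeq2 1.42.0 size factors), stretch length and each library left out.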

Additional observations from a re-analysis of the deposited data

How the results depend on the processing

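Of 40 alternatives over 9 results, 34 left the value within the spread used, or a count within 1.5 times. The spread was the SD of the 2 libraries, but for the median log2 ratio it was the SD over the 9 genes (0.231). Leaving a library out moves a mean of 2 libraries by less than their SD, so for the shares those alternatives could not fail. The share of reads on the opposite strand was 0 in every setting, so its alternatives could not fail either. With a minimum of 1 count in both libraries 21 genes were detected in place of 9. With a library left out, 9 to 12 were detected. The share of gene counts was 0.453% with counts of both strands, 0.205% of all reads and 0.265% of all mapped reads. It ranged from 0.466% to 0.471% with a library left out. With a minimum of 3 counts the median level was 4.69 in place of 8.53 on the log2(CPM + 1) scale, over 13 genes. With no minimum ratio 3 genes differed between the pools in place of 0. Over all genes 16 differed, 205 with no minimum ratio and 2 in edgeR's exact test. Medians without genes that share a stretch could not be given, since all 9 detected genes share one. The alternative lengths for fully shared hairpins, chosen after seeing the data, gave 20 at 18 bases and 19 at 22 bases, with 0 detected among them. No paired analysis was possible because there is 1 group. Depth limits all genes near 10 counts.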

Other observations

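Predicted folding (RNAfold, ViennaRNA 2.7.2, minimum free energy in kcal/mol per 100 bases) was similar in median for the detected genes and the others. The median was -38.7 over the 9 detected genes and -40.5 over the 60 others, against -37.9 over all hairpins with sequence. Among the detected genes the range ran from -57.3 in Mir466n, which is at 15.6 ± 3.47 CPM (SD, n = 2), to -26.3 in Mir669h at 3.87 ± 0.972 CPM. Mir467c, among the 3 highest genes, had -29.8. The 48 other miRNA genes inside Sfmbt2 on its strand had a median of -29.3.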
